A study of Mus musculus with 15 samples.

Results

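The genes of the ATF4 branch of the integrated stress response were followed in the livers of mice that ate fat-rich food alone or with coffee. The members were 10 genes, taken as every probe set of the array that is annotated to Atf4, Atf3, Atf5, Ddit3, Trib3, Ppp1r15a, Chac1, Sesn2, Asns or Psat1. They had 17 probe sets of the 34945 with exactly 1 gene symbol, and 10 of the 18193 genes tested. All 10 were measured and none was left out by a filter. On their brightest probe set, 7 lay at or above the median level of all genes (6.41 on the log2 scale), and Trib3, Chac1 and Psat1 lay below it.

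Expression was measured in the livers of 15 C57BL/6J males (an inbred laboratory strain prone to diet-induced obesity), with 1 Affymetrix mouse genome array per liver and 3 mice per group. Feeding began at an age of 7 weeks and lasted 9 weeks. The HFCC, HFDC and HFGC groups ate a high-fat diet (60 kcal% fat) mixed with 2% of a freeze-dried coffee that was caffeinated, decaffeinated, or green (unroasted) and caffeinated. The HF group ate the high-fat diet alone, and the ND group a normal diet with 10 kcal% fat. Intact mice of 1 strain and sex were used, so that diet alone separates the groups in the labels. All values are log2 of the authors' intensities, and a difference of 1 is a doubling on the array's scale.

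In the integrated stress response, kinases that sense unfolded protein, missing amino acids, viral RNA or low heme phosphorylate the translation factor eIF2. General protein synthesis then slows, while the mRNA of the transcription factor ATF4 is translated better. ATF4 turns on genes for amino acid supply, redox defence and feedback, and in the liver the pathway is known from protein restriction and from stress of the endoplasmic reticulum. An mRNA level, as measured here, does not show eIF2 phosphorylation or ATF4 protein.

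ATF4 and its partners bind a composite element with the core TGATGNAA, and a cAMP response element has the core TGACGTCA. Both motifs were searched on both strands from 250 bases before to 50 bases after the start of the RefSeq genes (build GRCm38.p6), and no stretch can match both. TGATGNAA was found for 4 of the 10 members, which have 12 such windows, and in 3.97% of 32851 promoters. TGACGTCA was found for 1 member and in 1.79% of promoters. The 5 stretches that hold a match are shown because they mark which members carry the letters of either motif near their start (TGATGNAA in Atf3, Chac1, Asns and Trib3, TGACGTCA in Ppp1r15a), with the match in capitals on the strand of the gene. A match is a description of the letters and not evidence of binding.
Atf3, chr1:191183410-191183469, minus strand, match starting at -110: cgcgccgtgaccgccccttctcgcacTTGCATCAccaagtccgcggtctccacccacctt
Chac1, chr2:119351023-119351082, plus strand, match starting at -193: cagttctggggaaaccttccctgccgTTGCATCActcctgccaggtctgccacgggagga
Asns, chr6:7693210-7693269, minus strand, match starting at -23: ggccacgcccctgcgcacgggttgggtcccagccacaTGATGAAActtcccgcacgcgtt
Trib3, chr2:152344028-152344057, minus strand, match starting at 15: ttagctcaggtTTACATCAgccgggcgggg
Ppp1r15a, chr7:45526269-45526328, minus strand, match starting at -12: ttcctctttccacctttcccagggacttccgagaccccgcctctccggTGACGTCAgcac

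On the array, the 3 HF livers had the highest 3' minus 5' signal of the control transcripts Gapdh and Actb, a log2 measure that is larger where RNA is shorter. It was 1.08, 1.40 and 1.17 in HF replicates 1, 2 and 3, against 0.70 to 1.07 in the 9 coffee livers and 0.83 to 0.95 in the ND livers. The HF group and this signal largely go together, so that a fit with the signal as a covariate cannot tell diet and RNA quality apart. The 5 measured hepatocyte markers averaged 13.70 in the HF group and 13.84 in the ND group on the log2 scale, and none of them was called between these groups. Of 34 measured markers of other cell types, 7 were called higher in the HF group, beside 8.92% of all genes. The count was 5 without HF replicate 2, 4 without HF replicate 3 and 0 with the 3' minus 5' signal as a covariate. With the covariate, 8 of the 34 markers and 2860 of all genes had an unadjusted p under 0.05 in limma. Among the 7 was the neutrophil gene S100a8, which rose by 1.51 (adjusted p = 0.0057 from limma). In whole liver, fewer cells of a type and less RNA per cell cannot be told apart.

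Atf4, the transcription factor at the head of the branch, was the only member called between the high-fat and the normal diet. Its log2 intensity on the probe set that stood for the gene (1448135_at) was 10.59, 10.35 and 10.44 in the HF livers, against 9.95, 10.15 and 10.09 in the ND livers. Every HF liver lay above every ND liver, as for 15.7% of all genes. Atf4 rose by 0.39 in the HF group (1.31-fold, SE 0.10, adjusted p = 0.015 from limma with Benjamini-Hochberg adjustment over all genes). This made 1 of 10 members called, beside 13.5% of all genes in either direction, so that the share called among the members was near that of the whole array. The 10 members had a median log2 difference of 0.23, against a median of -0.0015 over all genes, and 7 of them lay above 0.

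The call of Atf4 in the HF group was lost without ND replicate 1 (adjusted p = 0.052) and with the 3' minus 5' signal as a covariate, where the log2 difference was 0.34 (adjusted p = 0.28). With the HF and ND livers fitted alone the adjusted p was 0.062.

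In the coffee groups, Atf4 reached its highest levels with the coffees that contain caffeine. Its log2 intensity was 11.16, 10.88 and 10.85 in the HFCC livers, 10.47, 10.48 and 10.61 in the HFDC livers and 10.89, 10.83 and 10.68 in the HFGC livers. All HFCC livers lay above all HF livers, as for 7.50% of all genes, and so did all HFGC livers, as for 9.51%. The HFDC livers lay among the HF livers or just above them. The mean was 10.97 ± 0.17 (SD, n = 3) for HFCC, 10.52 ± 0.08 for HFDC, 10.80 ± 0.11 for HFGC, 10.46 ± 0.12 for HF and 10.07 ± 0.10 for ND. In descending order of these means (HFCC, HFGC, HFDC, HF, ND), the livers of HFCC and HFGC overlapped and so did those of HFDC and HF. HFGC lay wholly above HFDC, as for 6.48% of all genes, and HF wholly above ND, as for 15.7%.

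**Figure D1:**
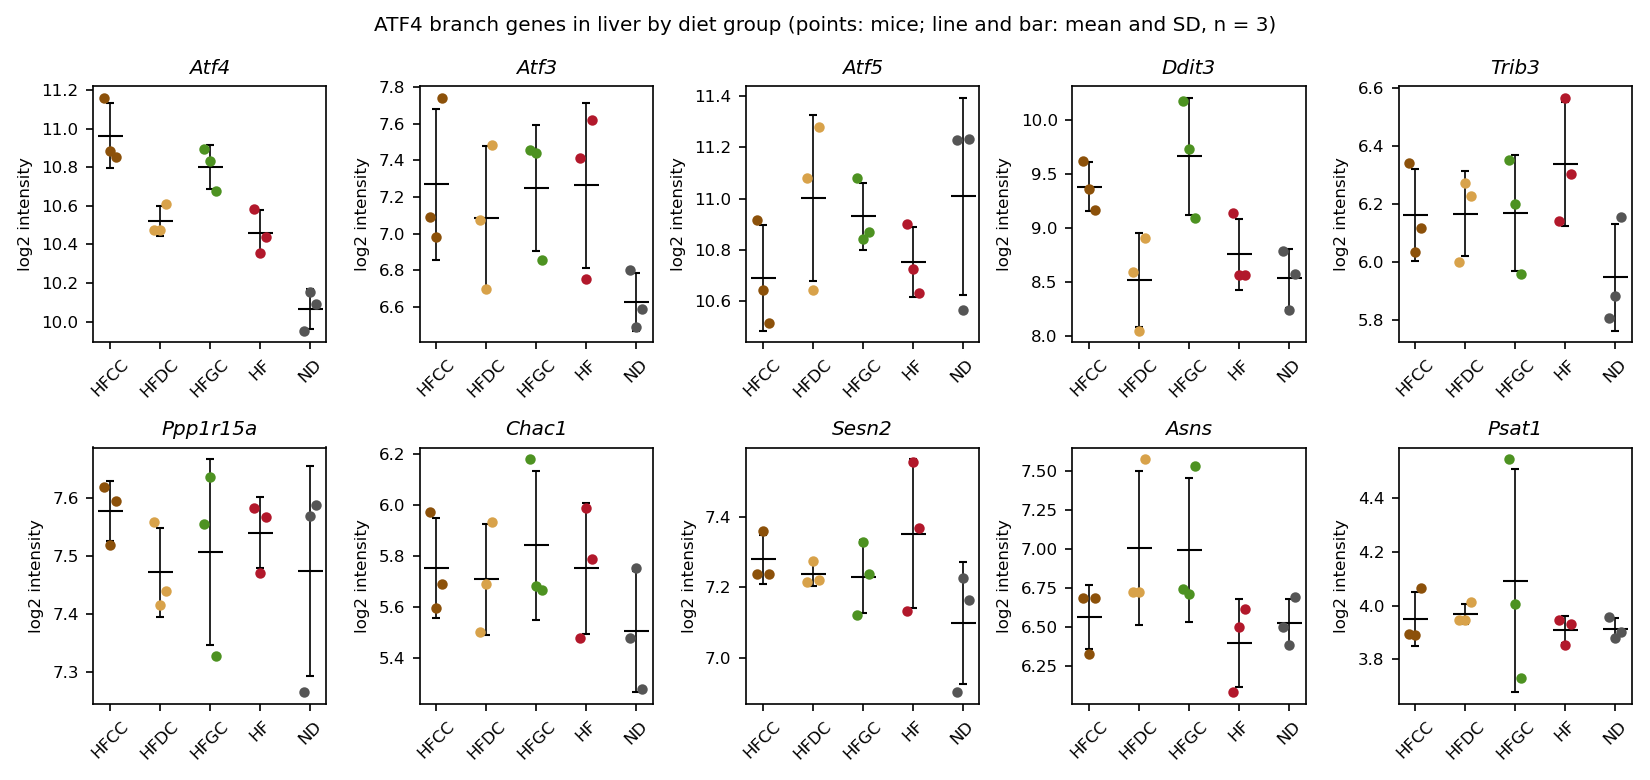
Log2 intensity (vertical axes) of the 10 members on the probe set that stood for each gene, by diet group (horizontal axes). Points are single livers, with the mean (line) and SD (bar) of 3 per group. Atf4 lies at 10.97 in the HFCC group, 10.46 in the HF group and 10.07 in the ND group on average, and Ddit3 is highest in the HFCC and HFGC groups.

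Relative to HF mice, Atf4 rose by 0.51 in the HFCC group (1.42-fold, SE 0.10, limma adjusted p = 0.033). It was the 1 member of 10 called there, beside 1.64% of all genes. In the HFGC group its log2 difference was 0.34 (95% interval 0.14 to 0.54, adjusted p = 0.062), and no member passed, beside 3.09% of all genes. There, 3 members (Atf4, Ddit3 and Asns) had an unadjusted p under 0.05 in limma, as had 3747 of the 18193 genes. In the HFDC group the difference of Atf4 was 0.06 (95% interval -0.14 to 0.26, adjusted p = 0.77), and no member passed, beside 5.02% of all genes. There, 1 member, Asns, had an unadjusted p under 0.05 in limma, as had 4122 of all genes. With the 3 coffee groups combined, Atf4 rose by 0.30 (SE 0.08, adjusted p = 0.026), again as 1 of 10 members beside 10.3% of all genes. Of the 9 coffee livers, 7 lay above all HF livers (exact permutation test of the difference of means, unadjusted two-sided p = 0.0364 over 220 splits). This test was run for each of the 10 members, and its p was 0.0818 for Asns and 0.173 to 0.918 for the other 8.

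The size of these differences moved little when a single array was left out, between 0.41 and 0.57 for the HFCC group and between 0.25 and 0.36 for the coffee groups together, but the calls did not all hold. The call of the HFCC group disappeared when HF replicate 2, HF replicate 3 or a single HFCC replicate was removed (adjusted p from 0.071 to 0.17), and that of the coffee groups together without HF replicate 2 or 3 (adjusted p = 0.18 and 0.12). With the 3' minus 5' signal as a covariate the differences were 0.55 and 0.36 and neither passed (adjusted p = 0.39 and 0.42). Over all genes, the 1868 calls in the coffee groups together numbered 4 without HF replicate 2, 64 without HF replicate 3 and 0 with the covariate (3136, 3527 and 1920 genes at an unadjusted p under 0.05 in limma).

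Set against the ND group, Atf4 was called in each coffee group. It rose by 0.90 with caffeinated coffee (1.87-fold, limma adjusted p = 0.00021), by 0.45 in the HFDC group (adjusted p = 0.049) and by 0.74 in the HFGC group (1.67-fold, adjusted p = 0.0016). Members called numbered 1 in the HFCC group beside 2.78% of all genes, 1 in the HFDC group beside 0.533%, and 2, Atf4 and Ddit3, in the HFGC group beside 1.45%. The HFCC and HFGC calls of Atf4 held without each array in turn and with the 3' minus 5' covariate, and that of the HFDC group disappeared in 12 of 15 fits with a single array removed. The coffee groups and the HF group are set against the same 3 ND livers in these comparisons.

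Atf4 is covered by 3 probe sets, which differ in what they show. The probe set 1438992_x_at, whose suffix marks probes that can bind several transcripts, was at 9.79, 9.76 and 9.80 in the HF livers, against 8.69, 9.01 and 9.22 in the ND livers. It rose by 0.81 with the high-fat diet (adjusted p = 0.014 over all probe sets). With the coffee groups together its difference from the HF group was only 0.04 (adjusted p = 0.90), and in the HFCC group 0.20 (adjusted p = 0.66), with HFCC replicate 1 at 10.48 and the other HFCC livers at 9.67 and 9.80. The third probe set, 1439258_at, was dim, between 4.36 and 4.97 in all livers, and differed by 0.15 between the HF and ND groups (adjusted p = 0.37). The higher Atf4 of the HF group thus appeared on both bright probe sets, and the further rise in the HFCC group passed on 1448135_at alone. Averaging the probe sets of the gene took away the call in the HFCC group (log2 difference 0.28, adjusted p = 0.11).

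**Figure D2:**
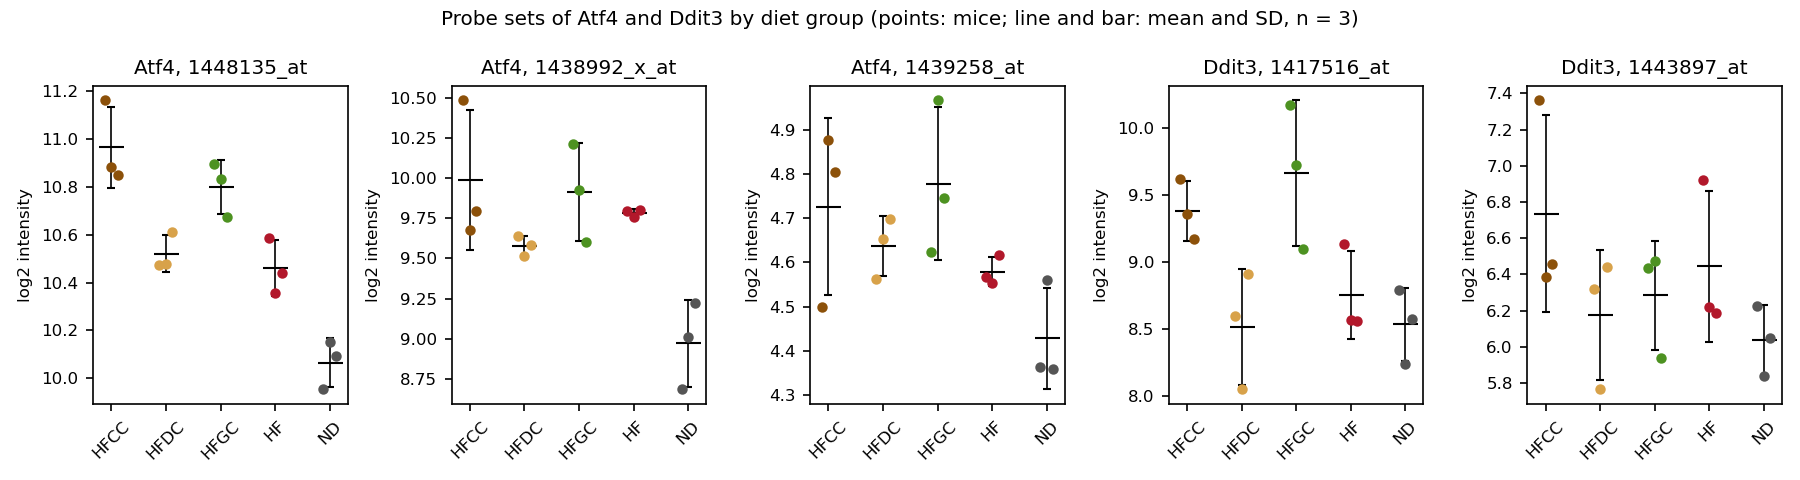
Log2 intensity (vertical axes) of the 3 probe sets of Atf4 and the 2 probe sets of Ddit3 by diet group (horizontal axes), with single livers as points and the mean and SD of 3 as line and bar. On 1438992_x_at the HF livers lie at 9.76 to 9.80, within the range of the coffee livers, and on 1443897_at of Ddit3 the HFGC livers lie at 5.94 to 6.48.

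Ddit3 encodes CHOP, a partner of ATF4 that is linked to cell death under prolonged stress, and on the probe sets that stood for the genes it had the widest range of the members. Its log2 intensity (1417516_at) was 9.62, 9.36 and 9.17 in the HFCC livers, 8.59, 8.05 and 8.91 in the HFDC livers and 10.17, 9.72 and 9.09 in the HFGC livers. It was 9.13, 8.57 and 8.56 in the HF livers, and 8.79, 8.24 and 8.57 in the ND livers. All HFCC livers lay above all HF livers, as for 7.50% of all genes, and in the HFGC group 2 of 3 did. Against the HF group the log2 difference was 0.63 in the HFCC group (adjusted p = 0.20), 0.91 in the HFGC group (SE 0.26, adjusted p = 0.065) and -0.24 in the HFDC group (adjusted p = 0.64), none of which passed. On the second probe set, 1443897_at, the differences from the HF group were 0.29 (HFCC), -0.16 (HFGC) and -0.27 (HFDC), with adjusted p = 0.64, 0.79 and 0.61, so that the direction in the HFGC group was the opposite one. On the brighter probe set Ddit3 differed by 0.22 between the HF and ND groups (adjusted p = 0.62), where the livers overlapped.

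In the HFGC group against the ND group, Ddit3 rose by 1.13 (2.19-fold, SE 0.26, adjusted p = 0.044 from limma). This call disappeared in 11 of 15 fits with a single array removed (adjusted p from 0.012 to 0.18 over all 15). It was not seen on 1443897_at, which was at 6.44, 6.48 and 5.94 in the HFGC livers, against 6.22, 5.84 and 6.05 in the ND livers. There the difference was 0.25 (adjusted p = 0.73).

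Between the coffees, Atf4 and Ddit3 were lower with decaffeinated coffee, but no member passed the test in any pair of groups. In the HFDC group against the HFCC group the log2 difference was -0.45 for Atf4 (95% interval -0.65 to -0.24, adjusted p = 0.095) and -0.86 for Ddit3 (95% interval -1.42 to -0.31, adjusted p = 0.33). All 3 HFDC livers lay below all 3 HFCC livers for both genes, as for 7.18% of all genes. In the HFGC group against the HFDC group the differences were 0.28 for Atf4 (adjusted p = 0.52) and 1.15 for Ddit3 (adjusted p = 0.19), and the livers again did not overlap, as for 6.48% of all genes. On the second probe set of Ddit3 the difference was -0.56 in the HFDC group against the HFCC group (adjusted p = 0.64) and 0.11 in the HFGC group against the HFDC group (adjusted p = 0.99), with overlapping livers in both pairs. On 1438992_x_at of Atf4 these differences were -0.41 (adjusted p = 0.64) and 0.34 (adjusted p = 0.88). There the HFDC livers (9.51 to 9.64) lay below the HFCC livers (9.67 to 10.48) and overlapped the HFGC livers (9.60 to 10.21). On the dim 1439258_at of Atf4 the livers overlapped in both pairs. Asns had its lowest levels of the coffee groups with caffeinated coffee. All HFDC livers lay above all HFCC livers by a mean of 0.44, as for 8.83% of all genes, and all HFGC livers above all HFCC livers by 0.43, as for 4.74%, and neither difference passed (adjusted p = 0.69 and 1.00). The lowest HFDC and HFGC livers (6.72 and 6.71) lay just above the highest HFCC level (6.69). On 1433966_x_at, the second probe set of Asns, the HFDC livers (3.59 to 5.69) overlapped the HFCC livers (3.12 to 4.17). The HFGC livers (4.27 to 5.68) lay above the HFCC livers there. Limma called none of the 10 members in HFDC vs HFCC, beside 0.0934% of all genes, or in HFGC vs HFDC, beside 0.0385%. In each of these pairs 2 members, Atf4 and Ddit3, had an unadjusted p under 0.05 in limma, as had 1450 and 1226 of all genes. Between the HFGC and HFCC groups, which both contain caffeine, limma called no gene at all (464 of all genes and no member at an unadjusted p under 0.05). The differences there were -0.16 for Atf4 (95% interval -0.37 to 0.04) and 0.28 for Ddit3 (95% interval -0.27 to 0.83).

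With HFCC and HFGC pooled in the contrast against the HFDC group, a comparison chosen after these values were seen, the differences were 0.36 for Atf4 (adjusted p = 0.10) and 1.01 for Ddit3 (adjusted p = 0.092), or 0.33 on the second probe set of Ddit3 (adjusted p = 0.80). No member passed, beside 0.165% of all genes (2 members and 1631 of all genes at an unadjusted p under 0.05 in limma). One powder of each kind was fed, so that caffeine and any other difference between the powders cannot be told apart.

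**Figure D3:**
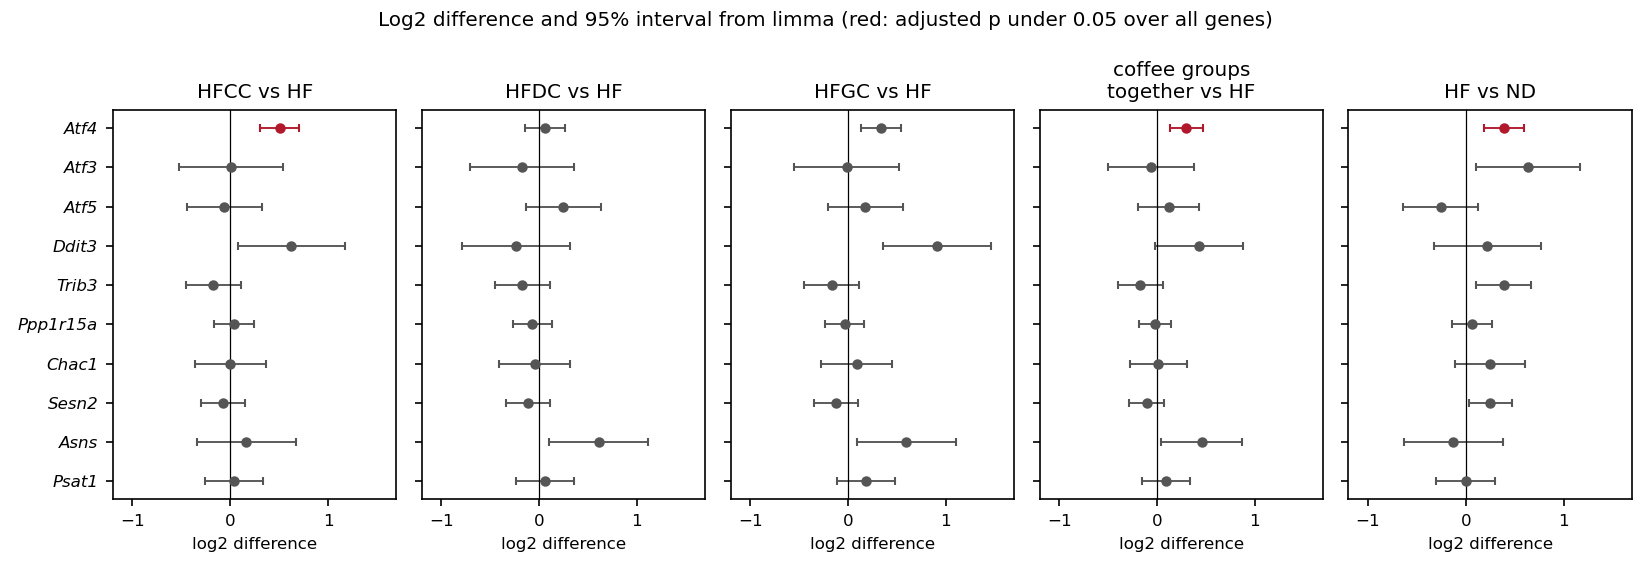
Log2 difference (horizontal axes) of the 10 members with its 95% interval in 5 comparisons, each panel with the first-named group minus the second, and in red the differences with an adjusted p under 0.05 over all genes. Atf4 is red in HFCC vs HF (0.51), in the coffee groups together vs HF (0.30) and in HF vs ND (0.39), and no other member is.

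The other 2 transcription factors did not pass in any comparison. Atf3, which is induced by many stresses and can repress ATF4 targets, was at 7.41, 6.76 and 7.62 in the HF livers, against 6.80, 6.49 and 6.59 in the ND livers. HF replicate 2 lay below the highest ND liver and the other HF livers lay well above it. The log2 difference was 0.63 (SE 0.25, adjusted p = 0.11), and its value without HF replicate 2 was 0.89 (adjusted p = 0.052). The coffee groups had means of 7.27 (HFCC), 7.09 (HFDC) and 7.25 (HFGC), close to 7.26 in the HF group, with a difference of -0.06 for the coffee groups together (95% interval -0.50 to 0.38). Atf5, a factor of the ATF4 family that is abundant in liver, was bright in all livers, between 10.51 and 11.28, and differed by -0.26 between the HF and ND groups (adjusted p = 0.37).

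Of the feedback and stress effectors, all 4 lay above 0 between the HF and ND groups and none passed. Trib3, a pseudokinase that restrains ATF4 and insulin signalling, was at 6.14, 6.57 and 6.30 in the HF livers, against 5.81, 5.88 and 6.16 in the ND livers. The groups touched, with HF replicate 1 just below ND replicate 3. The difference was 0.39 (SE 0.13, adjusted p = 0.063). On the second probe set of Trib3, 1456225_x_at, it was 0.83 (adjusted p = 0.016), with 5.77, 6.60 and 6.17 in the HF livers, against 5.45, 5.24 and 5.35 in the ND livers. The order of the HF livers on both probe sets was that of their 3' minus 5' signal, and with this signal as a covariate the difference of Trib3 between the HF and ND groups was 0.06 (adjusted p = 0.89). Since the HF livers had the highest signal of all, that fit cannot tell diet and RNA quality apart. The part of RNA quality in the result was not tested otherwise. With the coffee groups together against the HF group, Trib3 differed by -0.17 (95% interval -0.40 to 0.06).

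Sesn2, a leucine sensor that restrains mTORC1, was at 7.13, 7.55 and 7.37 in the HF livers, against 6.90, 7.23 and 7.17 in the ND livers. Its difference was 0.25 (adjusted p = 0.12), and HF replicate 2, with the highest 3' minus 5' signal, was also the highest of all 15 livers for Sesn2. Without that liver the difference was 0.15 (adjusted p = 0.40). Chac1, which degrades glutathione, was dim (5.28 to 6.18 over all livers) and differed by 0.25 between the HF and ND groups (adjusted p = 0.36) and by 0.02 between the coffee groups together and the HF group. Ppp1r15a encodes GADD34, which helps to remove the phosphate from eIF2. It was steady, between 7.26 and 7.64 in all livers, with differences of 0.07 between HF and ND (95% interval -0.14 to 0.27) and -0.02 with coffee (95% interval -0.19 to 0.14).

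**Figure D4:**
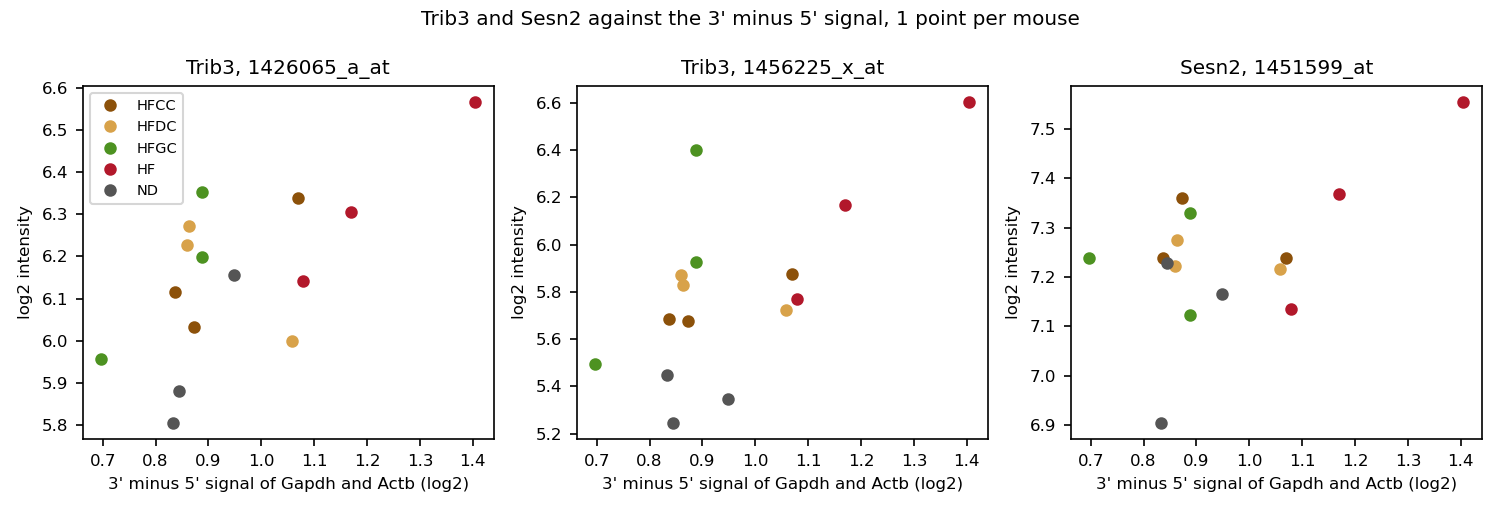
Log2 intensity (vertical axes) of the 2 probe sets of Trib3 and the brighter probe set of Sesn2 against the 3' minus 5' log2 signal of Gapdh and Actb (horizontal axes), 1 point per liver, coloured by diet group. HF replicate 2, at a 3' minus 5' signal of 1.40, has the highest value in all 3 panels (6.57, 6.60 and 7.55).

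Neither of the amino acid enzymes passed the test in any comparison. Asns, asparagine synthetase and a classical ATF4 target, was at 6.69, 6.33 and 6.69 in the HFCC livers, 6.73, 6.72 and 7.58 in the HFDC livers and 6.75, 6.71 and 7.53 in the HFGC livers. It was 6.08, 6.50 and 6.62 in the HF livers, and 6.50, 6.39 and 6.69 in the ND livers. A single liver stood out in each of the HFDC and HFGC groups, replicate 3 in both, and the same livers stood out on the second probe set (1433966_x_at), with 5.69 and 5.68 against 3.12 to 4.56 in all other livers. Atf4 was at 10.61 in that HFDC liver, the highest of its group, and at 10.68 in that HFGC liver, the lowest of its group. Against the HF group, Asns differed by 0.61 in the HFDC group (adjusted p = 0.14), by 0.60 in the HFGC group (adjusted p = 0.17) and by 0.17 in the HFCC group (adjusted p = 0.79). Without replicate 3 of the coffee group the first of these was 0.32 and the second 0.33. Of the 9 coffee livers, 8 lay above all HF livers for Asns, with a difference of 0.46 (adjusted p = 0.15 from limma; exact permutation test, unadjusted two-sided p = 0.0818). Without HF replicate 1, the lowest HF liver, it was 0.30 (adjusted p = 0.45). Psat1, a serine synthesis enzyme with little expression in liver, was at 3.73 to 4.07 in 14 of the 15 livers and at 4.55 in HFGC replicate 1, and differed by less than 0.01 between the HF and ND groups.

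Over the 15 arrays, Atf4 and Ddit3 were the pair of members most alike (Pearson r = 0.74), followed by Trib3 with Chac1 (0.62) and with Sesn2 (0.61), and Atf5 with Sesn2 was the least alike (-0.58). These correlations share the group differences and the arrays and are given as a description. Among all genes, the most like Atf4 were Gfpt1 (0.93), which encodes the first enzyme of the hexosamine pathway, and the cytochrome genes Cyp2c37 (0.93) and Cyp2c54 (0.93). The most like Ddit3 were Slc20a1 (0.92), Suco (0.90) and Ficd (0.90), of which Ficd encodes an enzyme that modifies the chaperone BiP. For Asns they were Pom121l12 (0.85), Ccdc175 (0.81) and Dhh (0.80). These values include HFDC replicate 3 and HFGC replicate 3, which stood out for Asns (7.58 and 7.53).

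Upstream of ATF4, Eif2ak3, which encodes the kinase PERK that senses unfolded protein in the endoplasmic reticulum, was, like Atf4 and Ddit3, lowest in the HFDC group among the coffee groups. Its log2 intensity was 8.49, 8.36 and 8.52 in the HFCC livers, 7.97, 7.71 and 8.02 in the HFDC livers and 8.47, 8.44 and 8.02 in the HFGC livers, against 7.91, 7.61 and 7.52 in the HF livers and 7.49, 8.02 and 7.75 in the ND livers. All HFCC livers and all HFGC livers lay above all HF livers, as for 7.50% and 9.51% of all genes. HFGC replicate 3 was level with the highest HFDC liver. Eif2ak3 rose by 0.78 in the HFCC group (limma adjusted p = 0.033) and by 0.63 in the HFGC group (adjusted p = 0.035), and differed by 0.22 in the HFDC group (adjusted p = 0.41). The calls disappeared in 5 and 4 of 15 fits with a single array removed, HF replicates 2 and 3 among them, while the differences lay between 0.70 and 0.90 and between 0.55 and 0.78. With the 3' minus 5' covariate neither passed (0.86 and 0.73, adjusted p = 0.39 and 0.54). With its probe sets averaged the differences were 0.36 and 0.25 (adjusted p = 0.046 and 0.085). The caffeinated groups together differed from the HFDC group by 0.48 (adjusted p = 0.16). Between the HF and ND groups it differed by -0.07 (adjusted p = 0.79).

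Of 12 measured genes of the eIF2 kinases, eIF2 and its exchange factor eIF2B, 3 rose in the HF group against the ND group, beside 8.92% of all genes that rose, and none fell. They were Eif2ak4, the kinase GCN2 that senses missing amino acids (0.37, adjusted p = 0.049), and the eIF2B subunits Eif2b4 (0.29) and Eif2b5 (0.22). With the coffee groups together against the HF group, Eif2ak3 rose by 0.54 (limma adjusted p = 0.014), beside 3.39% of all genes that rose. Eif2ak1, the heme-regulated kinase, fell by 0.32 (adjusted p = 0.036) and Eif2ak2, the RNA-activated kinase PKR, fell by 0.45 (adjusted p = 0.036), beside 6.88% of all genes that fell.

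Other known targets of ATF4 were called in both directions. Of 11 measured aminoacyl-tRNA synthetase genes, 4 rose in the HF group against the ND group, beside the same 8.92% of all genes, and none fell, with a median of 0.23 against -0.0015 over all genes. Sars, the seryl-tRNA synthetase, rose by 0.44 (adjusted p = 0.0030 from limma), and its log2 intensity was 8.77, 8.97 and 8.88 in the HF livers, against 8.44, 8.46 and 8.41 in the ND livers. Cars, Lars and Aars rose by 0.38, 0.37 and 0.35. With the coffee groups together, 2 of the 11 fell against the HF group, Sars by 0.24 and Lars by 0.20, beside 6.88% of all genes that fell, and none rose. In that comparison Atf4 was called higher and these synthetases lower.

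Of 9 measured amino acid transport genes, Slc3a2, the heavy chain of several transporters, rose by 0.34 in the HF group against the ND group (limma adjusted p = 0.036). With all coffee groups against the HF group it fell by 0.34 (adjusted p = 0.019). Slc7a11, the cystine carrier, fell by 0.32 in the HF group. Of 8 serine, glycine and one-carbon genes, Shmt2, a mitochondrial serine hydroxymethyltransferase, rose by 0.28 in the HF group. Cth, which makes cysteine, fell by 0.55 there (limma adjusted p = 0.043). It rose by 0.48 with the coffee groups together against the HF group (adjusted p = 0.040). Its means were 12.67 (HFCC), 12.28 (HFDC) and 12.70 (HFGC), against 12.07 in the HF group. The HFDC livers overlapped the HF livers. Of 12 other genes linked to ATF4, Cebpb, which encodes a partner that binds the composite element with ATF4, rose by 0.61 on the high-fat diet (adjusted p = 0.0026), and Vegfa, an angiogenic factor, rose by 0.43 across the coffee groups (adjusted p = 0.0093). In the HF group against the ND group, 1 gene of each of these lists rose, beside 8.92% of all genes, and 1 transport and 1 serine gene fell, beside 4.63%. With the coffee groups together against the HF group, 1 serine and 1 other gene rose, beside 3.39% of all genes, and 1 transport gene fell, beside 6.88%. The HF livers enter both of these comparisons, so that their opposite signs are not independent.

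The neighbouring ATF6 and XBP1 arms of the unfolded protein response had 14 measured genes. With the coffee groups together against the HF group, 6 of them rose and none fell, beside 3.39% of all genes that rose, and their median log2 difference was 0.34 against 0.0069 over all genes. Creld2, a chaperone-like protein, rose by 0.71 (adjusted p = 0.040), Dnajb9, a BiP cochaperone, by 0.57, Dnajc3, which restrains PERK, by 0.53, and Pdia4, a disulfide isomerase, by 0.52. In the HF group against the ND group 2 rose, beside 8.92% of all genes, the chaperone Calr by 0.47 and Sel1l, a part of the degradation machinery of the endoplasmic reticulum, by 0.45. That count was 0 without HF replicate 2, 1 without HF replicate 3 and 0 with the 3' minus 5' covariate. At an unadjusted p under 0.05 in limma were 4, 5 and 1 of 14, beside 4223, 4327 and 2860 of all genes. The call of Creld2 disappeared in 10 of 15 fits with a single array removed. Its means were 11.98 (HFCC), 11.36 (HFDC) and 11.97 (HFGC), against 11.07 in the HF group. The HFDC and HFGC livers overlapped the HF livers. No gene of these arms was called with coffee without HF replicate 2, without HF replicate 3 or with the 3' minus 5' covariate. At an unadjusted p under 0.05 in limma were 7, 7 and 6 of 14 under these settings, beside 3136, 3527 and 1920 of all genes. The median difference under these settings was 0.30, 0.26 and 0.41. Against the ND group, 9 of the 14 rose in the HFCC group, beside 1.68% of all genes that rose. In the HFGC group 6 rose, beside 1.01%, and in the HFDC group 0, beside 0.308%. All 14 differences lay above 0 in each. These comparisons share the 3 ND livers, and the groups differ in fat as well as coffee.

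Of 11 measured immediate early genes, which respond to handling and to many other stimuli as Atf3 does, 3 rose in the HF group against the ND group, beside 8.92% of all genes, namely Btg2 (0.91), Junb (0.84) and Zfp36 (0.68). The count was 1 without HF replicate 2, 1 without HF replicate 3 and 0 with the 3' minus 5' covariate. At an unadjusted p under 0.05 in limma were 3, 5 and 5 of 11, beside 4223, 4327 and 2860 of all genes. With the coffee groups together against the HF group, Junb fell by 0.55 (limma adjusted p = 0.030). Its means were 6.05 (HFCC), 6.73 (HFDC) and 6.03 (HFGC), against 6.81 in the HF group. The HFDC livers overlapped the HF livers. The call was lost without HF replicate 2 (-0.33, adjusted p = 0.24) and without HF replicate 3 (-0.66, adjusted p = 0.068). The part of such responses in the Atf3 values was not tested.

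The calls in the other ATF4-linked lists also turned on HF replicates 2 and 3. Without either liver, or with the 3' minus 5' covariate, limma called no gene of the eIF2, transport, serine, synthetase or other ATF4-linked lists in the coffee groups together against the HF group. At an unadjusted p under 0.05 in limma were 1 to 4 genes of each list, beside 3136, 3527 and 1920 of all genes (without HF replicate 2, without HF replicate 3 and with the covariate). These counts were chosen after the data were seen. Between the HF and ND groups, 3 synthetase genes were called without HF replicate 2 and 3 without HF replicate 3, and Cebpb was called without either (adjusted p up to 0.017 with any array removed). The eIF2 and serine lists had no called gene without either liver (3 genes of each at an unadjusted p under 0.05), and the transport list had 1, which fell, without HF replicate 2 and none without HF replicate 3 (3 at an unadjusted p under 0.05). With the covariate none of these lists had a called gene in that comparison (1 to 3 of each list at an unadjusted p under 0.05), where 14 of all genes were called. Over all genes, 4223 had an unadjusted p under 0.05 in limma between the HF and ND groups without HF replicate 2, 4327 without HF replicate 3 and 2860 with the covariate. The call of Cth disappeared in 9 of 15 fits with a single array removed between HF and ND and in 8 of 15 with coffee, and that of Slc3a2 in 4 and 2. Cth had a log2 difference of -0.18 in the HF group and 0.13 with coffee under the covariate (adjusted p = 0.74 and 0.85).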

How the data were processed

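Biotin-labelled RNA of 15 livers was hybridised to Affymetrix mouse genome arrays, and the authors computed the deposited intensity values with RMA, a method that subtracts background, equalises the arrays and summarises the probes of a set into 1 linear value. Which program ran it was not given in the sources used here. Array medians were 48.5 to 50.0, and the number of arrays limits the precision. Log2 was taken with no further normalization. Of 45101 probe sets, 64 were controls, 34945 carried exactly 1 symbol in the platform annotation, 932 several and 9160 none, and only those with 1 symbol were named and tested. Each of 18193 genes was represented by its brightest probe set, with _x_at only where it had no other.

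All 15 arrays entered 1 model of 5 group means in limma 3.58.1 (R 4.3.3). Benjamini-Hochberg adjustment ran over all genes, or over all probe sets where single probe sets are given, and calls needed an adjusted p under 0.05. "Rose" and "fell" are used of called genes. The fit was tested on simulated arrays with independent noise and no difference in RNA quality, so that test does not cover RNA quality. A single gene of 3 arrays against 3 allows no exact two-sided permutation p below 0.1.

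All members are described. Of the other lists, up to 4 called genes and up to 3 not called, those that changed most, could be named. The 3 most alike genes were taken by Pearson r. Members and lists were chosen with earlier results of these data known. The comparison of HFCC and HFGC together against HFDC was added after values were seen. Alternatives were averaged probe sets, all probe sets, the brighter genes (level not below the median), quantile normalization, cyclic loess, compared groups alone, an offset of 32, a replicate block, a threshold of 0.10, a minimum of 1.5-fold, eBayes with trend and robust settings, the 3' minus 5' covariate and leaving out each array.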

Additional observations from a re-analysis of the deposited data

How the results depend on the processing

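Counts of members called changed with the processing as follows. With averaged probe sets they were 2 in HF vs ND, 0 in HFCC vs HF, 0 in the coffee groups together vs HF and 1 in HFGC vs ND. With all probe sets the count was 0 in HFDC vs ND, with genes at or above the median level 2 in HFGC vs HF, and with the offset or with trend and robust 1 in HFGC vs ND. With the compared groups alone it was 0 in HF vs ND, HFCC vs HF and HFDC vs ND and 1 in HFGC vs ND. An adjusted p under 0.10 gave 2 in HF vs ND, HFGC vs HF and HFCC vs ND and 1 in HFDC vs HFCC and in HFCC and HFGC together vs HFDC. At least 1.5-fold gave 0 in HF vs ND, HFCC vs HF, the coffee groups together vs HF and HFDC vs ND. The 3' minus 5' covariate gave 0 in the same 4 comparisons. Leaving out 1 array gave 0 to 3 in HF vs ND, 0 to 1 in HFCC vs HF, 0 to 2 in HFGC vs HF, 0 to 1 in the coffee groups together vs HF, 1 to 1 in HFCC vs ND, 0 to 1 in HFDC vs ND, 1 to 2 in HFGC vs ND and 0 to 1 in HFCC and HFGC together vs HFDC. The lowest counts were without HF replicate 2 or 3 or an HFCC array for HFCC vs HF, and without ND replicate 1 for HF vs ND. The counts by limma are those of 10 members. The cause of these changes was not tested.

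The replicate block gave 2 in HF vs ND, 1 in HFGC vs HF, 2 in the coffee groups together vs HF, 2 in HFCC vs ND, 0 in HFDC vs ND and 1 in HFCC and HFGC together vs HFDC. The labels do not say whether livers with the same replicate number were processed together. Livers of the same number had a mean correlation of their deviations of 0.02 (-0.28 to 0.23 over 30 pairs), against -0.01 for different numbers.

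Some log2 differences that did not pass any test changed sign. With averaged probe sets Atf4 was -0.029 in HFDC vs HF, Ddit3 0.061 in HFDC vs ND and -0.085 in HFGC vs HFCC, and Psat1 0.073 in HF vs ND. With the covariate Ddit3 was -0.011, Ppp1r15a -0.057 and Asns 0.039 in HF vs ND, and Trib3 0.14, Ppp1r15a 0.10 and Sesn2 0.039 in the coffee groups together vs HF. With cyclic loess and quantile normalization Ppp1r15a was 0.026 and 0.019 in the coffee groups together vs HF, and Psat1 0.036 and 0.046 in HF vs ND. Leaving out 1 array gave Atf3 -0.31 to 0.12, Ppp1r15a -0.057 to 0.0081 and Chac1 -0.12 to 0.13 in the coffee groups together vs HF, Ddit3 -0.21 to 0.22 in HFDC vs ND, and Ppp1r15a -0.038 to 0.12, Asns -0.24 to 0.031, Psat1 -0.021 to 0.027 and Eif2ak3 -0.21 to 0.061 in HF vs ND. Of 712 single values under the other alternatives 625 kept their direction and side of the threshold, and of 900 with 1 array left out 794 did. A difference that was called in neither fit also counts as kept here. A call was lost with the direction kept in 59 of the 712 values and in 81 of the 900.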
